A study of Homo sapiens with 4 samples.

Results

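The matrix metalloproteinases (MMPs) and their tissue inhibitors (TIMPs) were described here by 10 genes, MMP1, MMP2, MMP3, MMP10, MMP14, MMP24, TIMP1, TIMP2, TIMP3 and TIMP4, taken by name from a table of 23577 usable gene symbols. It had 1 column for each of 4 human cell lines derived from leiomyosarcoma, a cancer with smooth muscle features. The lines are RKN, SKLMS1, SKN and SKUT1. All were cultured without treatment in DMEM with 10% FBS, and each gave 1 poly(A) RNA-seq library. Levels are given in FPKM, which divides fragments by transcript length and library size, so genes of 1 line can be set side by side. The column sums differed, from 446954 in RKN to 619584 in SKUT1, so small differences between lines depend on the scaling. With 1 library per line there is no replicate spread, all differences below are sizes without a test, and neighbouring levels under 2-fold apart are not ordered.

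MMPs are zinc-dependent endopeptidases that cut collagens and other matrix proteins. Most are secreted as inactive proenzymes, while the membrane-type members are anchored in the plasma membrane. TIMPs bind the active site of MMPs and block it, and TIMP3 stays bound to the matrix and also inhibits several ADAM and ADAMTS proteases. In connective tissue and smooth muscle, the balance between these enzymes and inhibitors is known as a control on matrix turnover and cell invasion.

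The lines differed mainly in which MMP was abundant and in how much TIMP stood beside it. SKN was dominated by the collagenase MMP1, at an FPKM of 953. SKUT1 had MMP2 at 616 and very high inhibitor levels, with TIMP1 at 9606 and TIMP3 at 2838. RKN and SKLMS1 had MMP14 as their most abundant MMP, at 37.2 and 59.7. SKN was the only one of the 4 lines in which the summed MMP level exceeded the summed TIMP level.

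**Figure D1:**
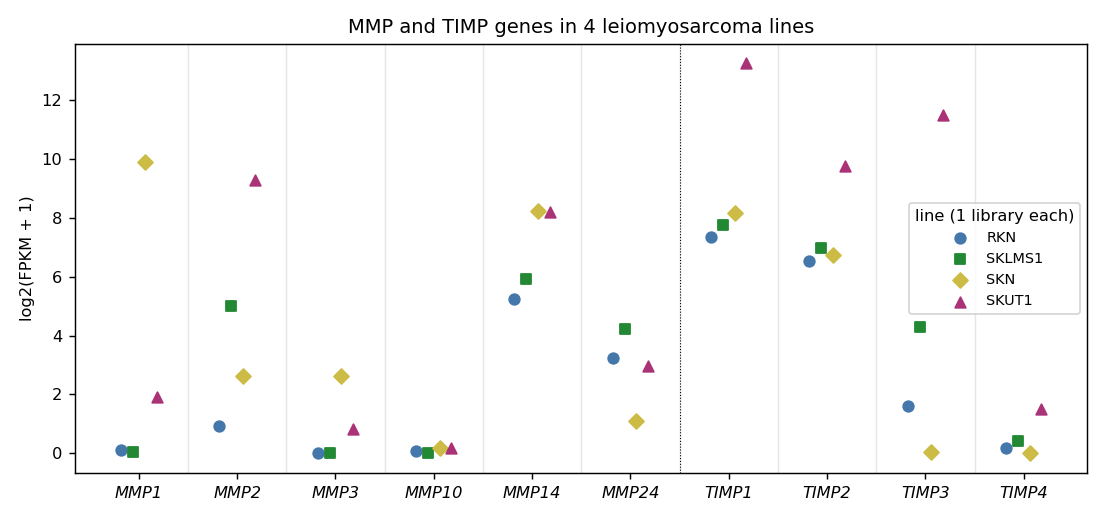
Level of each of the 10 genes in each line as log2(FPKM + 1), 1 point per library, with MMPs left and TIMPs right of the dotted line. MMP1 stands out in SKN (FPKM 953), and MMP2 (616), TIMP1 (9606), TIMP2 (871) and TIMP3 (2838) stand out in SKUT1, while MMP14 is alike in SKN (299) and SKUT1 (292).

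Sequence upstream of the transcription start was held for 6 of the 10 members in the RefSeq promoter table (MMP10, MMP14, MMP24, TIMP1, TIMP3 and TIMP4) and not for MMP1, MMP2, MMP3 and TIMP2. The 250 bases before the start are shown for 4 of them. TIMP1 and TIMP3 are the inhibitors with the widest lead in SKUT1, MMP14 is the MMP with an FPKM of at least 37.2 in all 4 lines, and MMP10 is the member near 0 in all 4. Capitals mark the GC box (GGGCGG or CCGCCC), the TATA motif (TATAAA or TTTATA) and a variant AP-1 motif (TGAGTAA or TTACTCA). The last was included because it is known from the TIMP1 gene.
TIMP1 (GRCh38.p14, chrX:47582186-47582435, plus strand): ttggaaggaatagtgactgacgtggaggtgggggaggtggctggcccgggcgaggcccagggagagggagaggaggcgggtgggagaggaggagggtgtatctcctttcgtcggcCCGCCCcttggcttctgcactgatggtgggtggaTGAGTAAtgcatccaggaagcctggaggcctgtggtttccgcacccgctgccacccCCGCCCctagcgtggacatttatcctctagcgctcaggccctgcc
TIMP3 (GRCh38.p14, chr22:32801455-32801704, plus strand): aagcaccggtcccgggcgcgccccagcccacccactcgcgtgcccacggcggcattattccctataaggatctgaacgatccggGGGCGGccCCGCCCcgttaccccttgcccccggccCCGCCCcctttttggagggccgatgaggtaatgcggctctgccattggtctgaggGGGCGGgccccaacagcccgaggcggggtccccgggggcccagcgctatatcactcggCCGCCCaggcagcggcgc
MMP14 (GRCh38.p14, chr14:22836335-22836584, plus strand): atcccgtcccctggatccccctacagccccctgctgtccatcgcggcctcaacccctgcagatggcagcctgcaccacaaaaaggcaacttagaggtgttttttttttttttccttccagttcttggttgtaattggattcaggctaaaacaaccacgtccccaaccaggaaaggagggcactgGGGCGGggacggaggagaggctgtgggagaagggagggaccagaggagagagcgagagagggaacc
MMP10 (GRCh38.p14, chr11:102780629-102780878, minus strand): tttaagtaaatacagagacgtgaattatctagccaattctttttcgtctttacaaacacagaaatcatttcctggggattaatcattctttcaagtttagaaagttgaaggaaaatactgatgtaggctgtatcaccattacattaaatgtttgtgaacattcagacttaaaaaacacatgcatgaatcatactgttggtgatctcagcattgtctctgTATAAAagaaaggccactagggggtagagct

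The TIMP3 window held 5 GC boxes, that of TIMP1 held 2, that of MMP14 held 1 and that of MMP10 none. The windows of MMP24 and TIMP4, not shown, held 3 and 1. GC boxes were found in 42.6% of the 35116 promoter windows of the same length. The variant AP-1 motif occurred once among the 6 members, 101 bases upstream of the TIMP1 start, and in 2.21% of all windows. The TATA motif occurred only in MMP10 among the 6, 31 bases upstream, and in 10.7% of all windows. Of the 14434 windows of genes that reached an FPKM of 1 in any line, 62.7% held a GC box. In these, the variant AP-1 and TATA motifs occurred in 1.45% and 5.94%. The AP-1 consensus (TGAGTCA or TGACTCA), an ETS motif (CCGGAA or TTCCGG), and the NF-kB and CArG consensus motifs, searched by their degenerate forms, had no match in the 6 windows. They occurred in 4.20%, 14.5%, 5.21% and 1.16% of all windows. Both strands were read and no printed match overlapped another. The MMP10 window was also the poorest in G and C of the 6, at 34.4% against 56.8% in MMP14, 64.8% in TIMP1 and 72.4% in TIMP3. The median of all windows was 58%. These matches are a description of letters, and the files hold no binding data.

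Depth and zeros limit the low values. Estimated totals ran from 24300000 reads in SKUT1 to 33600000 in RKN, which makes 1 read on a 2 kb transcript an FPKM of 0.0165 to 0.0228. Each line had 6793 to 7534 genes listed at 0. These included FN1, the fibronectin gene, in SKUT1, although it was 2960 in SKN, so a 0 may be a failed estimate and is reported only as listed at 0. Smooth muscle markers were partly present in all lines, with 5 to 9 of 10 at an FPKM of 1 or more, 9 of them in SKUT1. Of 9 leukocyte markers, 1 to 3 per line reached an FPKM of 1, among them CD68, at 4.76 to 75.3, and CSF1R, at 5.48 in SKLMS1, while PTPRC was at most 0.213. Of 7 endothelial markers, 3 did in SKN, with TIE1 at 70.0, KDR at 4.91 and ESAM at 1.75, and 1 in SKUT1, with TEK at 39.6, while PECAM1 and CDH5 were at most 0.115 and 0.0702.

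MMP1 cuts fibrillar collagens I, II and III. Its FPKM was 953 in SKN, 2.74 in SKUT1, 0.0873 in RKN and 0.0382 in SKLMS1. The SKN level was 348-fold that of SKUT1 and had rank 76 among the genes of SKN. The RKN and SKLMS1 levels amount to a few reads and are not ordered. On the log2(FPKM + 1) scale, the lead of SKN over the next line was 7.996. This lay at the 99.8 percentile of the 13713 kept genes, those that reached an FPKM of 1 somewhere among the 4 lines.

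The stromelysins MMP3 and MMP10, which cut proteoglycans, fibronectin and laminin and can activate other proMMPs, were low everywhere. MMP3 was 5.17 in SKN, 0.755 in SKUT1 and 0 as listed for both RKN and SKLMS1. It thus had the same top line and the same next line as MMP1, at a level 184-fold lower in SKN. MMP10 was 0.131 in SKUT1, 0.127 in SKN, 0.0572 in RKN and listed at 0 in SKLMS1. It never reached an FPKM of 1 and was left out of every count below.

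MMP1, MMP3 and MMP10 lie beside each other in the cluster of 9 MMP genes that RefSeq orders as MMP7, MMP20, MMP27, MMP8, MMP10, MMP1, MMP3, MMP12 and MMP13. The high level in SKN was limited to MMP1 and, far lower, MMP3. The elastase MMP12 was at most 0.122 in any line and the collagenase MMP13 at most 0.0258. MMP20, MMP27 and the neutrophil collagenase MMP8 were listed at 0 in all 4 lines. MMP7, matrilysin, at the other end of the cluster, was 5.12 in SKLMS1, 0.129 in SKN and listed at 0 in RKN and SKUT1. WTAPP1, a pseudogene that overlaps MMP1 and MMP3 in RefSeq, was 0.0653 in SKN and listed at 0 in the other lines.

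**Figure D2:**
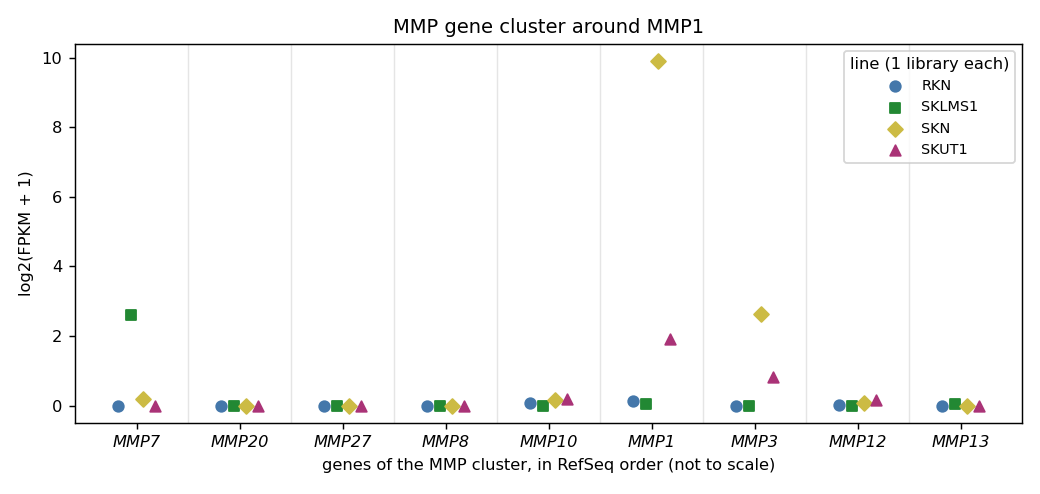
Level of the 9 genes of the MMP cluster in RefSeq order (horizontal axis, not to scale) as log2(FPKM + 1), 1 point per library. MMP1 (FPKM 953) and MMP3 (5.17) are raised in SKN and MMP7 (5.12) in SKLMS1, while MMP20, MMP27 and MMP8 are listed at 0 in all lines.

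MMP2 is the gelatinase that degrades denatured collagen and type IV collagen. Its FPKM was 616 in SKUT1, 31.0 in SKLMS1, 5.12 in SKN and 0.925 in RKN. Each line was at least 5.54-fold above the next lower one, so none of the 4 neighbouring levels were close. The lead of SKUT1 over SKLMS1 was 19.9-fold, or 4.27 on the log2(FPKM + 1) scale. MMP9, the other gelatinase, did not follow this order, at 2.90 in SKN, 0.389 in RKN, 0.0305 in SKLMS1 and listed at 0 in SKUT1.

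MMP14, a membrane-anchored collagenase that also activates proMMP2, formed 2 levels. Its FPKM was 299 in SKN and 292 in SKUT1, against 59.7 in SKLMS1 and 37.2 in RKN. The upper pair differed by 1.02-fold and the lower pair by 1.61-fold, and the step between the pairs was 4.89-fold. MMP14 was the only one of the 6 MMPs with an FPKM of 10 or more in all 4 lines.

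MMP24, a membrane-type MMP best known from the nervous system, had another order of lines. Its FPKM was 17.8 in SKLMS1, 8.52 in RKN, 6.79 in SKUT1 and 1.13 in SKN, so SKN, the line highest in MMP1, was lowest here. RKN and SKUT1 were 1.25-fold apart and are not ordered. RefSeq places MMP24OS and the MMP24-AS1-EDEM2 readthrough on the same locus, and the strand setting of the authors' quantification is not given in the sources used here. Reads of the overlap may therefore be included.

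TIMP1, a soluble inhibitor of most secreted MMPs, was abundant in all lines. Its FPKM was 9606 in SKUT1, 285 in SKN, 216 in SKLMS1 and 162 in RKN. SKUT1 was 33.7-fold above SKN, whereas neighbours among the other 3 lines were 1.32-fold and 1.34-fold apart and are not ordered. In SKUT1, TIMP1 had rank 1, the highest listed FPKM of all 23577 genes, against rank 244 in SKN, 334 in SKLMS1 and 386 in RKN. FN1 and COL1A1 were listed at 0 in SKUT1, which may be failed estimates, so the rank holds for the values as listed.

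TIMP2, which inhibits MMPs and also forms the bridge by which proMMP2 docks on MMP14, varied least of the 3 abundant inhibitors. It was 871 in SKUT1, 124 in SKLMS1, 104 in SKN and 90.7 in RKN. SKUT1 was 7.04-fold above SKLMS1, and the neighbours below it were 1.19-fold and 1.15-fold apart. After rescaling of the columns to a common sum, RKN (203) and SKN (193) changed places.

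TIMP3 had the widest range of the members. Its FPKM was 2838 in SKUT1, far above 18.6 in SKLMS1, 2.08 in RKN and 0.0373 in SKN. The steps were 153-fold, 8.93-fold and 55.8-fold, the last one resting on a few reads in SKN. The range of 11.42 on the log2(FPKM + 1) scale reached the 99.98 percentile of all kept genes. TIMP4, an inhibitor best known from heart, was 1.86 in SKUT1, then 0.341 in SKLMS1, 0.145 in RKN and listed at 0 in SKN. This is the same order of lines as TIMP3 at a far lower level, with RKN and SKLMS1 resting on few reads.

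TIMP1, TIMP3 and TIMP4 lie inside the synapsin genes SYN1, SYN3 and SYN2 in RefSeq. The host genes were low in all lines. SYN1 was 0.197 to 0.938, SYN2 0.0333 to 0.466 and SYN3 at most 0.403, the last in SKUT1 and listed at 0 in SKN. All 3 were under an FPKM of 1 in every line. Of a list of 11 host and neighbouring genes of the members, 8 had listed values and 5 reached an FPKM of 1 in any line. None of these 5 was highest or lowest by 4-fold in any line. Of all genes, at most 4.06% were highest and at most 1.65% lowest in a line, so no call among 5 genes says little. The 3 synapsin genes were below the filter and could not be called.

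Summing FPKM over all 24 MMP genes and over the 4 TIMP genes gave the balance of the 2 families. The summed MMP level was 1277 in SKN, 952 in SKUT1, 127 in SKLMS1 and 64.4 in RKN. The summed TIMP level was 13316 in SKUT1, 389 in SKN, 359 in SKLMS1 and 255 in RKN. The TIMP sum was 14.0 times the MMP sum in SKUT1, 3.95 times in RKN and 2.82 times in SKLMS1, and 0.305 times in SKN. These ratios stay within a library, so scaling a column by 1 factor leaves them as they are. They concern transcripts, and secreted or active protein was not measured.

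The composition of the MMP sum differed between all 4 lines. In SKN, MMP1 made up 74.7% and MMP14 23.4%. In SKUT1, MMP2 made up 64.8% and MMP14 30.6%. In SKLMS1, MMP14 made up 46.9%, MMP2 24.3% and MMP24 14.0%, and in RKN MMP14 made up 57.7%, MMP24 13.2% and MMP11 12.0%. MMP11, stromelysin 3, is not one of the 10 members.

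TIMP1 was the most abundant inhibitor in every line, with 60.3% of the TIMP sum in SKLMS1, 63.5% in RKN, 72.1% in SKUT1 and 73.3% in SKN. The remainder was almost all TIMP2 in RKN (35.6%), SKLMS1 (34.4%) and SKN (26.7%). In SKUT1 TIMP3 made up 21.3% and TIMP2 6.54%. The 4 TIMPs together held 2.15% of the summed FPKM of SKUT1 as listed and 0.0570 to 0.0726% of that of the other lines.

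**Figure D3:**
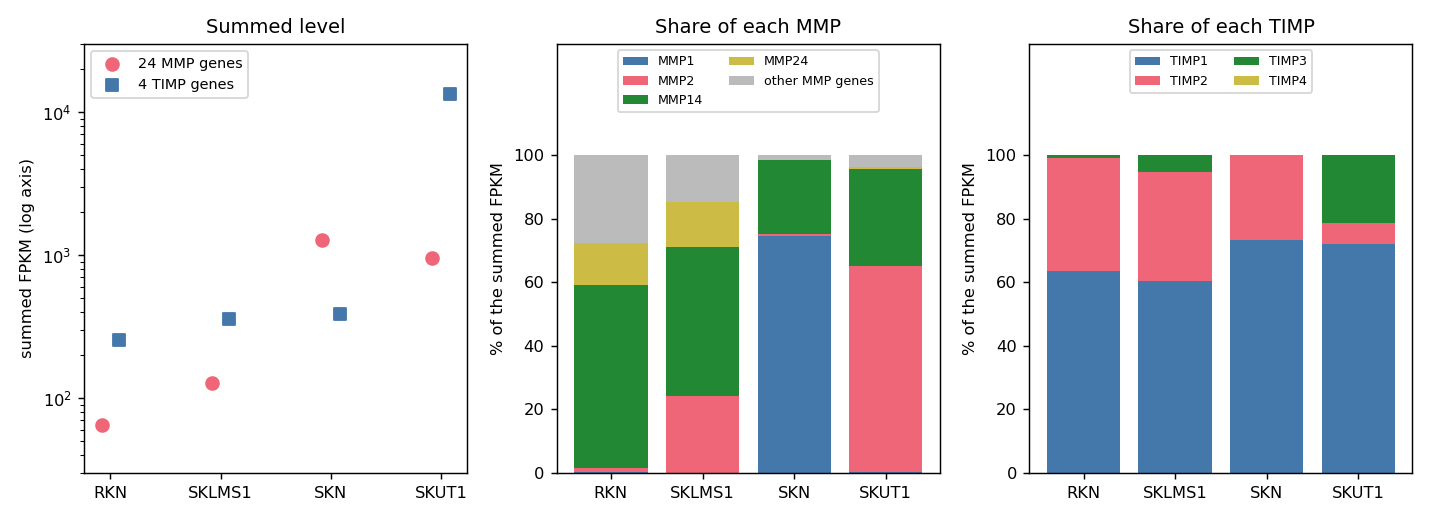
Left, summed FPKM of the 24 MMP genes (circles) and the 4 TIMP genes (squares) per line on a log axis; middle and right, the share of single genes in each sum, in percent. The circle lies above the square only in SKN (1277 against 389), and TIMP3 is a visible share of the TIMP sum in SKUT1 (21.3%) and SKLMS1 (5.17%).

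MMP14, TIMP2 and MMP2 form the complex in which proMMP2 is activated, and their proportions differed between the lines. TIMP2 was 2.44 times MMP14 in RKN, 2.07 times in SKLMS1, 2.99 times in SKUT1 and 0.348 times in SKN. MMP14 was 58.3 times MMP2 in SKN and 40.2 times in RKN, but 1.93 times in SKLMS1 and 0.473 times in SKUT1. SKN thus had more MMP14 than TIMP2 transcript, and SKUT1 had more MMP2 than MMP14. For the pair MMP1 and TIMP1, MMP1 was 3.34 times TIMP1 in SKN, while TIMP1 was at least 1853 times MMP1 in the other 3 lines.

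Of the 10 members, 9 passed the minimum FPKM of 1 in at least 1 line. To be called highest in a line, a gene had to lie at least 2 above every other line on the log2(FPKM + 1) scale. To be called lowest, it had to lie at least 2 below. This step is 4-fold in FPKM + 1, here called 4-fold for short, and it can miss larger folds in FPKM among low values. Highest in SKUT1 were 4 of the 9, MMP2, TIMP1, TIMP2 and TIMP3, where 4.06% of all 13713 kept genes were. Highest in SKN was 1, MMP1, where 1.34% of all genes were. None was highest in RKN or SKLMS1, against 1.37% and 1.33% of all genes. None was lowest by this rule in RKN (1.65% of all genes), SKLMS1 (0.306%), SKN (0.583%) or SKUT1 (0.824%). By FPKM itself, the lowest line lay 55.8-fold (TIMP3) and 5.99-fold (MMP24) below the next in SKN, and 5.54-fold (MMP2) in RKN. The range over the 4 lines was 2 or more on this scale for 8 of the 9, where it was for 26.7% of all genes. The exception was TIMP4, whose FPKM ran from a listed 0 in SKN to 1.86 in SKUT1. The 10 members were chosen with earlier results of these data known, so the counts describe them only.

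Calls depended on which lines were compared. With a line left out, a gene has fewer lines to pass, so calls are easier to reach for any gene. The share of all genes called in this way was not computed. Here and for the lists below, counts without a line therefore have no share beside them, and the shares given are for all 4 lines. Without SKUT1, 3 members were highest in SKN, as MMP3 and MMP14 joined MMP1, and 2 in SKLMS1, namely MMP2 and TIMP3. Without SKN, 5 members in place of 8 had a range of 4-fold, since MMP1, MMP3 and MMP24 no longer did. Rescaling to a common sum changed the split over all genes in SKUT1 from 557 highest and 113 lowest to 543 and 227, and in RKN from 188 and 226 to 318 and 249. All 4 members highest in SKUT1 remained so on that scale.

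**Figure D4:**
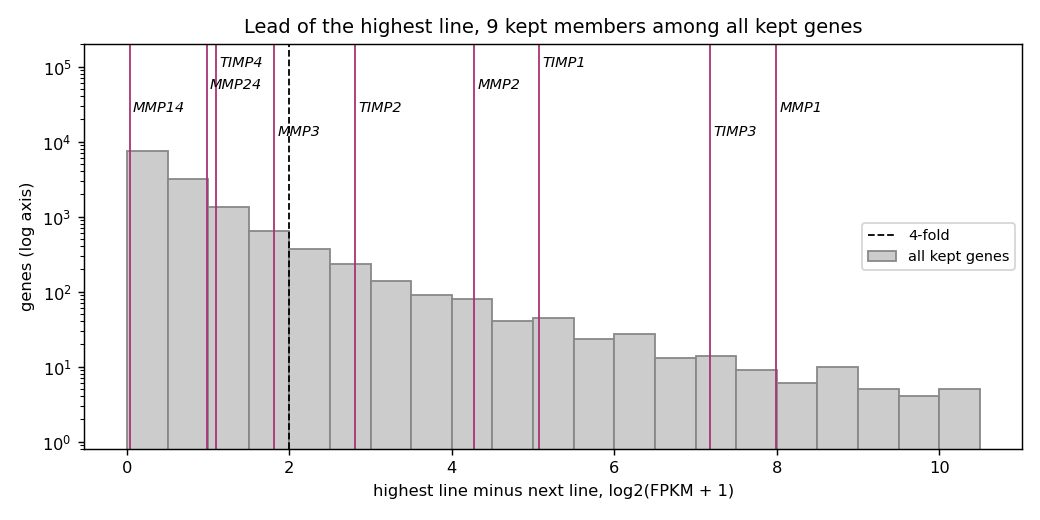
Lead of the highest line over the next line on the log2(FPKM + 1) scale (horizontal axis) for all 13713 kept genes (grey bars, log axis), with the 9 kept members as vertical lines and the 4-fold limit dashed. MMP1 (7.996), TIMP3 (7.18), TIMP1 (5.07), MMP2 (4.27) and TIMP2 (2.81) lie beyond the limit, and MMP14 (0.04) lies at the left edge because SKN and SKUT1 are alike.

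The other MMP genes were low. Of 18, 8 reached an FPKM of 1 in any line. MMP19 was 13.6 in SKUT1 and 4.10 in SKLMS1, MMP17, a membrane-type member, 10.1 in SKUT1 and 0.368 in SKLMS1, and MMP11 7.74 in RKN and 3.06 in SKUT1. The membrane-type MMP15 was 6.22 in SKLMS1 and 1.03 in SKUT1, and MMP16 5.05 in SKUT1 and at most 0.969 elsewhere. MMP28, epilysin, was 1.32 in SKLMS1. By the 4-fold rule, MMP7 was highest and MMP17 lowest in SKLMS1, against 1.33% and 0.306% of all genes. No other of the 8 was called in any line. Of all genes, 1.37%, 1.34% and 4.06% were highest in RKN, SKN and SKUT1, and 1.65%, 0.583% and 0.824% were lowest. Such shares of 8 genes would give few calls. With a line left out, 1 became highest in SKUT1 without SKLMS1 or SKN and 1 in RKN without SKUT1. The medians of their differences from the mean of the other 3 lines were 0.23 in SKUT1 and -0.48 in SKN, with 0.00 in SKLMS1 and -0.31 in RKN, where those of all genes lay between -0.06 and -0.03.

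Genes that activate, restrain or clear MMPs were mostly highest in SKUT1. Of 19 kept genes of this list, 11 were highest there, against 4.06% of all genes, with a median difference of 4.25 against -0.03 for all genes. THBS1, thrombospondin 1, was 2534 in SKUT1, 137 in SKLMS1, 19.6 in SKN and 7.50 in RKN, and THBS2 was 315 in SKUT1 and at most 2.06 elsewhere. SERPINB2, an inhibitor of urokinase, was 198 in SKUT1, at most 0.0463 in SKN and RKN and listed at 0 in SKLMS1. RECK, a membrane-anchored MMP inhibitor, was 106 in SKUT1 and 4.33 to 5.03 in the other lines, so a further inhibitor had its top value where the TIMPs did. RECK was named after its values were seen.

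Some genes of that list were also called lowest in a line. TFPI2, a serine protease inhibitor of the matrix, was 416 in SKUT1, 134 in SKN, 16.3 in SKLMS1 and 0.212 in RKN, and SPOCK1 was 402, 47.6, 81.5 and 0.0705 in the same lines. These 2 genes were lowest in RKN, against 1.65% of all genes, and 4 were lowest in RKN without SKLMS1. SPOCK1 was also among those highest in SKUT1. Another 2 were lowest in SKLMS1, against 0.306% of all genes, and 4 without RKN. BSG, an inducer of MMPs also named after its values were seen, was 228 to 434 in all lines.

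Targets and partners of TIMPs had 5 of 16 genes highest in SKUT1, against 4.06% of all genes, with a median difference of 1.86 against -0.03 for all genes. EFEMP1, which binds TIMP3, was 977 in SKUT1, 21.2 in SKN, 5.04 in SKLMS1 and 0.0416 in RKN. ADAMTS1, a proteoglycan-cutting protease, was 707, 8.88, 16.6 and 0.0466 in these lines. ADAMTS2, a procollagen peptidase, was 109 in SKUT1 and 8.81 in SKLMS1, ADAM12 90.5 and 10.8, and the endocytic receptor LRP1, which is also on the list of activation and inhibition, 209 and 7.10. Another 2 were highest in SKN and 3 lowest in RKN, against 1.34% and 1.65% of all genes, and 5 were lowest in RKN without SKN.

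Transcription factors known to act on MMP genes showed no such lead of SKUT1. Of 27, 2 were highest in SKN, 2 in RKN and 1 in SKUT1, against 1.34%, 1.37% and 4.06% of all genes, and 2 were lowest in RKN, against 1.65%. Without SKUT1, 4 were highest in SKN, without SKN 3 in SKUT1, and without SKLMS1 4 were lowest in RKN. ETV4, an ETS factor, was 55.0 in SKN, 12.8 in RKN, 1.67 in SKUT1 and 0.947 in SKLMS1. CEBPB was 144 in SKN and 9.34 to 48.8 elsewhere, RUNX2 was 15.8 in SKLMS1 and 5.10 in SKN, TWIST1 80.4 in RKN and at most 10.6 elsewhere, and ETS2 25.9 in SKLMS1 and 1.74 in RKN. The AP-1 subunits FOSL1 and JUN, named after their values were seen, were 289 and 130 in SKN against at most 73.2 and 51.9 in the other lines. Median differences of the list were 0.42 in SKN, -0.08 in SKUT1, -0.11 in RKN and -0.45 in SKLMS1, where those of all genes lay between -0.06 and -0.03.

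Cytokines and growth factors known to induce MMPs had 3 of 16 kept genes highest in SKN, 2 in SKLMS1 and 4 lowest in RKN, against 1.34%, 1.33% and 1.65% of all genes. IL1B was 1090 in SKN and at most 0.948 elsewhere, and IL1A 40.0 and at most 0.105. IL6 was 111 in SKUT1, 68.9 in SKN, 30.5 in SKLMS1 and 0.0606 in RKN. PDGFB and TGFB2 were 45.5 and 42.5 in SKLMS1, with at most 0.995 and 5.13 elsewhere. Without SKLMS1, 6 were highest in SKN, without SKN 4 were highest in SKLMS1, and without SKUT1 7 were lowest in RKN. Median differences were 0.97 in SKN, 1.03 in SKLMS1, -0.15 in SKUT1 and -2.22 in RKN.

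Known MMP substrates had 9 of 21 kept genes highest in SKUT1 and 7 lowest in RKN, against 4.06% and 1.65% of all genes. Their median differences were 3.24 in SKUT1 and -3.75 in RKN, against -0.03 and -0.04 for all genes. COL1A2, a chain of the type I collagen that MMP1 cuts, was 5096 in SKUT1, 98.3 in RKN, 77.5 in SKLMS1 and 0.113 in SKN, so the line with the highest MMP1 had the lowest COL1A2. COL1A1, the other chain, was 939 in SKLMS1, 7.06 in RKN and 0.447 in SKN. SKN was thus again lowest among these lines, but SKLMS1 and RKN were far apart, unlike for COL1A2. In SKUT1, COL1A1 was listed at 0, which may be a failed estimate as for FN1, so the level of type I collagen in SKUT1 is not settled. COL3A1 was 1498 in SKUT1, 80.6 in RKN, 1.53 in SKLMS1 and 0.0894 in SKN. ELN, elastin, was 1624 in SKUT1 and 22.7 in SKN, and DCN, a collagen-binding proteoglycan, 1064 in SKUT1 and at most 2.88 elsewhere. Of the rest, 2 were highest in SKN, with FN1 at 2960 there, against 1.34% of all genes, and 4 were without SKLMS1. Lowest in SKN were 2 of the 21 kept genes, against 0.583% of all genes. The list had 1 gene highest in SKLMS1, against 1.33% of all genes, and 3 without SKN or SKUT1. That gene was COL1A1, which was named after its values were seen. With FN1 and COL1A1 listed at 0 in SKUT1, their calls over all 4 lines are not settled.

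Markers of fibroblasts were mostly highest in SKUT1. All 8 on the list, among them PDGFRA, DCN and COL1A2, were at an FPKM of 1 or more in SKUT1. Highest there were 7 of the 8, against 4.06% of all genes. Their summed FPKM was 8743 in SKUT1, 228 in RKN, 191 in SKLMS1 and 0.504 in SKN, where none reached 1 and LUM was listed at 0. DCN, COL1A2 and COL3A1 are also on the substrate list. The summed smooth muscle markers were likewise highest in SKUT1, at 6331, against 910 in SKLMS1, 206 in RKN and 110 in SKN. Summed epithelial markers were 763 in SKUT1, 549 in SKN, 459 in SKLMS1 and 54.9 in RKN. Of the SKUT1 sum, 474 was KRT14 alone, which was at most 0.0414 elsewhere. KRT8 was 268 in SKLMS1, 265 in SKN, 9.42 in SKUT1 and 1.99 in RKN. KRT18 was 283 in SKN, 184 in SKUT1, 42.8 in SKLMS1 and 7.84 in RKN. KRT19 was 146 in SKLMS1, 93.4 in SKUT1, 44.6 in RKN and 0.342 in SKN. In contrast, EPCAM, CDH1, ESRP1 and KRT5 were at most 1.80, 1.20, 0.0682 and 0.294 in any line. Summed endothelial markers were 76.8 in SKN, 40.6 in SKUT1, 0.469 in RKN and 0.145 in SKLMS1. Leukocyte markers summed to 77.5 in SKUT1 and 5.72 to 29.7 elsewhere. The part of these markers in the MMP2 and TIMP levels of SKUT1 and the MMP1 level of SKN was not tested, and in a bulk library fewer cells of a type and less RNA per cell cannot be told apart.

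**Figure D5:**
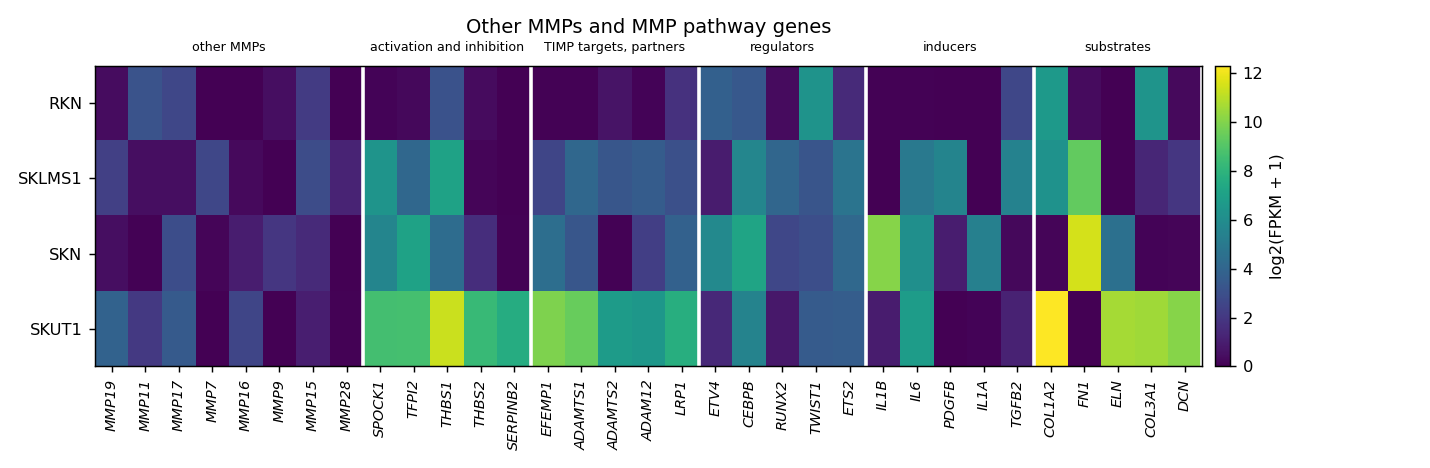
Level of the other MMP genes with an FPKM of 1 or more and of the 5 genes with the widest range from each of 5 pathway lists, by line, as log2(FPKM + 1) in colour. The lists of activation and inhibition and of TIMP targets and partners are brightest in SKUT1 (THBS1 2534, EFEMP1 977), IL1B (1090) stands alone in SKN, and FN1 is dark in SKUT1 because it is listed at 0.

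The genes most like each abundant member were found by the Euclidean distance between log2(FPKM + 1) profiles over the 4 lines, each centred on its mean, among the 8646 genes that reached an FPKM of 10 in any line. Closest to MMP1 was IL1B, at a distance of 0.87. The next, MIR27A and SNORD1C, are short RNAs with 1 shared value of 355 in SKN, listed at 0 in the other lines. Closest to MMP2 were THBS1 (0.31), NTN4 (0.78) and ABI3BP (1.15), and closest to MMP14 were ST3GAL1 (0.32), SSFA2 (0.33) and SIPA1L1 (0.36). MMP24 was nearest to the lipid droplet gene PLIN2 (0.31), followed by TRIM47 (0.43) and TUFT1 (0.47).

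For the inhibitors the nearest genes were COL5A3 (0.25), ISLR (0.33) and the cell cycle inhibitor gene CDKN1A (0.37) for TIMP1. For TIMP2 they were B4GALT4 (0.23), SOCS5 (0.26) and CSGALNACT2 (0.29). TIMP3 had no close neighbour, with CRYAB, a small heat shock protein, at 1.41, DCN at 1.75 and KIAA1199 at 2.10. Among the 7 members that reached an FPKM of 10, which leaves out MMP3, MMP10 and TIMP4, the closest profiles were TIMP1 and TIMP2 (2.17), MMP14 and TIMP2 (2.46) and MMP2 and TIMP1 (2.81), and the farthest were MMP1 and TIMP3 (14.19). With 4 points per profile and 1 library per point, many genes share a profile of this kind, and these distances are a description.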

How the data were processed

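Poly(A) RNA of 4 leiomyosarcoma lines was read as single-end 75 bp reads from stranded TruSeq libraries, per the labels' protocols. The authors deposited 1 table of FPKM per gene symbol with 1 column per line, and per the submitters' processing notes, STAR and Cufflinks were used with hg19. Annotation, strand setting and filters were not given in the sources used here. Of 23610 rows, 28 with a symbol turned into a date and 5 with spreadsheet errors were left out. FPKM were compared as log2(FPKM + 1) for the 13713 genes that reached an FPKM of 1 in any line. The pseudocount understates differences of low genes. Depth was estimated from the value of 1 read in genes with 1 transcript in GENCODE release 29, assuming fragments of 200 bases. After fitting, 62.0 to 64.2% of 288 to 334 low values lay within 0.1 of a whole read, where 20% would by chance, and some excess is built into the fit. No counts were recovered.

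Members, gene lists and the naming rule were chosen with earlier results of these data known. The rule named all members, every other MMP gene with an FPKM of 1 in any line, up to 5 genes of widest range per list among those with 10 or more, and the 3 nearest profiles. A gene of the list of activation and inhibition is not reported here and was left out of its counts. Genes on a list of neighbouring loci served only for overlaps. RefSeq (GRCh38.p14) gave gene order, overlaps and promoters, and no hg19 coordinates are printed. No test was made, since each line had 1 library. The code was tested on simulated data. Alternatives were pseudocounts, scalings, filters, an 8-fold rule and leaving out each line. Python 3.11.15, numpy 2.4.6 and pandas 2.3.3 were used.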

Additional observations from a re-analysis of the deposited data

How the results depend on the processing

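Each line had 1 library, so leaving out a line replaces leaving out a replicate, and the cause of the changes below was not tested. Of 100 counts of members under 12 alternatives, 87 stayed within 1.5 times the reported value, with a 0 that stayed 0 scored as unchanged. Many of the reported counts were 0, and a stricter setting such as the 8-fold rule cannot raise them. Part of this agreement was thus built in. With a pseudocount of 0.1, 1 member was lowest in RKN, 2 were highest and 2 lowest in SKN. On the TPM scale, 2 were highest and 1 lowest in SKN. Leaving out each other line in turn gave 5 to 8 members with a 4-fold range, 0 to 2 highest in SKLMS1, 1 to 3 highest in SKN, 0 to 2 lowest in RKN, 0 to 1 lowest in SKLMS1 and 0 to 2 lowest in SKN. Shares of all genes were not computed for these comparisons. Of 80 leads of the highest line, 5 rose past the 4-fold limit, those of MMP3 and TIMP4 with a pseudocount of 0.1, MMP3 on the TPM scale, and MMP3 and MMP14 without SKUT1. The lead of MMP10 turned to -0.027 on the TPM scale, where SKN passed SKUT1, far below that limit. The TPM scale changed the median difference of all genes from -0.04 to 0.24 in RKN and from -0.03 to -0.31 in SKUT1. It gave summed MMP levels of 144 (RKN), 258 (SKLMS1), 2372 (SKN) and 1536 (SKUT1), and summed TIMP levels of 570, 726, 723 and 21492.5 in these lines, so the TIMP sums of SKLMS1 and SKN changed places. Other scalings moved no sum by over 1.5 times. Depth limits MMP10, the MMP1 and TIMP4 levels of RKN and SKLMS1 and the TIMP3 level of SKN, which rest on few reads.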
